A study of Rattus norvegicus with 25 samples.

Results

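The 6 genes described here are those by which the rat mitochondrial genome encodes subunits of respiratory complexes III, IV and V: Mt-cyb (ENSRNOG00000031766), Mt-co1 (ENSRNOG00000034234), Mt-co2 (ENSRNOG00000030371), Mt-co3 (ENSRNOG00000030700), Mt-atp6 (ENSRNOG00000031979) and Mt-atp8 (ENSRNOG00000033299). For short they are called the 6 mRNAs below, although Mt-atp6 and Mt-atp8 are read from a single mRNA. The 6 were chosen by Ensembl gene ID, by a rule without measured values, though with earlier results of these data known. They are 6 of the 32883 IDs in the count table. All 6 passed the low-count filter in both cohorts. The study sequenced total RNA of rat intestine after gastric bypass of the Roux-en-Y kind (RYGB), which reroutes the small intestine, or after a sham operation. In the first cohort RYGB rats gave the common limb (RYGB_CL) and the alimentary limb (RYGB_AL), and sham rats gave ileum (Sham_IL) and jejunum (Sham_JEJU), with 3 samples in each group. The second cohort came from Otsuka Long-Evans Tokushima Fatty (OLETF) rats, an inbred line that becomes obese and diabetic. Its RYGB rats gave sections that the submitters call glucotonic (Glucotonic_OLE, 4 samples) and nonglucotonic (Nonglucotonic_OLE, 4 samples), and its sham rats gave distal intestine (Sham_OLE, 3 samples). The labels do not give the strain of the first cohort, ages or the layer of the gut wall, and they list no drug, diet or transgene. Sample numbers recur between sections (RYGB_CL 1-1 and RYGB_AL 1-1, for example), and the design text takes both OLETF sections from rats that had RYGB.

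Mitochondria transcribe their own small circular genome as long precursors that are cut into individual RNAs, and translate the mRNAs on their own ribosomes. Cytochrome b (Mt-cyb) carries the quinone sites of complex III, which passes electrons to cytochrome c. Mt-co1, Mt-co2 and Mt-co3 encode the core of complex IV, cytochrome c oxidase, where oxygen is reduced. Mt-atp6 and Mt-atp8 encode subunits of the membrane part of complex V, the ATP synthase, and Mt-atp6 forms the path by which protons drive the rotor. Both are read from a single mRNA with overlapping reading frames, so a read in the overlap belongs to both. The other subunits of these complexes are encoded in the nucleus. In absorptive epithelium the ATP made this way powers the sodium pump that drives nutrient uptake. Nuclear copies of mitochondrial DNA can share reads with all 6, and no source used here tells how such reads were handled, so the levels carry that uncertainty.

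Libraries of the first cohort held 23701200 to 49319800 counts and those of the OLETF cohort 18095700 to 25639500 (to 6 significant digits). A pair of IDs without a name in the files, ENSRNOG00000043866 and ENSRNOG00000030478, together took 0.192 to 1.58% of the counts in the first cohort and 44.6 to 65.9% in the OLETF libraries. The 6 mRNAs together took 1.29 to 2.14% of all counts in the first cohort and 1.98 to 3.89% in the OLETF samples. With that pair of IDs set aside, the same shares were 1.30 to 2.17% and 4.57 to 8.23%. No ID of the table could be paired with a symbol, so the labelled gut regions were not checked against marker genes. Levels below are CPM, counts divided by library size, scaled within each cohort by the TMM method, which assumes that most IDs are unchanged. CPM are not corrected for length, so levels are compared between samples and not between genes.

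Mt-co1, Mt-co2 and Mt-co3 of complex IV and Mt-atp6 of complex V were lower in every RYGB_CL sample than in every RYGB_AL sample with TMM scaling, by log2 differences between -0.86 and -0.63. Scaled by library totals, which put the median of all IDs at 0.37, these log2 differences were between -0.54 and -0.29, and Mt-co1 and Mt-co2 overlapped between the limbs. DESeq2 called Mt-co1 and Mt-atp6 lower there, and edgeR called none of them. How many of all IDs were likewise without overlap between these limbs was not counted, so the separation has no background beside it. Of all IDs, 29.2% had an unadjusted edgeR p under 0.05 between these limbs. Mt-cyb of complex III and Mt-atp8 overlapped between those limbs, and in the OLETF cohort the levels of all 6 overlapped between RYGB sections and sham intestine. The comparisons within a cohort share samples, so they are not independent of each other. None of the 6 mRNAs passed the threshold of an adjusted p under 0.05 in any of 8 comparisons by edgeR's quasi-likelihood test, adjusted over all IDs tested. In the first cohort, 0 of 6 were called in RYGB_CL against RYGB_AL, where 9.32% of 16146 IDs were called, and 0 of 6 in Sham_IL against Sham_JEJU, where 9.22% were called. The count was 0 of 6 in RYGB_AL against Sham_JEJU, where 7.66% of IDs were called, and 0 of 6 in RYGB_CL against Sham_IL, where 0% were. The surgery effect in RYGB_AL minus that in RYGB_CL was called for 0 of 6 and for 0.607% of IDs. In the OLETF cohort 0 of 6 were called in Glucotonic_OLE against Sham_OLE, in Nonglucotonic_OLE against Sham_OLE and in Glucotonic_OLE against Nonglucotonic_OLE, where 0.0345%, 0% and 0% of 14495 IDs were called. Those background counts rested on few samples: without both sections of number 19, 1862 of 14307 IDs were called in Glucotonic_OLE against Sham_OLE and 157 in Nonglucotonic_OLE against Sham_OLE, and without Sham_OLE 4, 103 and 3 of 14724. With same-numbered samples as a paired block, 25 of 14004 IDs were called in Glucotonic_OLE against Nonglucotonic_OLE. The count of the 6 mRNAs was 0 in each of these fits. At an unadjusted p under 0.05, edgeR gave 4 of the 6 in RYGB_CL against RYGB_AL, where 29.2% of all IDs had such a p, and 0 of 6 in each of the other 7 comparisons. Scaled by library totals the 4 became 0 of 6, where 5711 of 16146 IDs had such a p, beside 4711 with TMM. With TMM scaling the share of all IDs with such a p was 28.1% in Sham_IL against Sham_JEJU and 22.2% in RYGB_AL against Sham_JEJU. It was 7.85% in RYGB_CL against Sham_IL and 12.5% for the difference between surgery effects. It was 16.4% in Glucotonic_OLE against Sham_OLE, 6.46% in Nonglucotonic_OLE against Sham_OLE and 2.68% in Glucotonic_OLE against Nonglucotonic_OLE. DESeq2 called 2 of 6 in RYGB_CL against RYGB_AL, where it called 17.2% of IDs with an adjusted p, and 0 of 6 in each of the others. Its share of IDs called in those, in the same order, was 16.4%, 12.6%, 0.578%, 3.55%, 3.54%, 0.183% and 0.0207%. In bulk tissue, fewer cells of a type and less RNA per cell cannot be told apart.

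**Figure D1:**
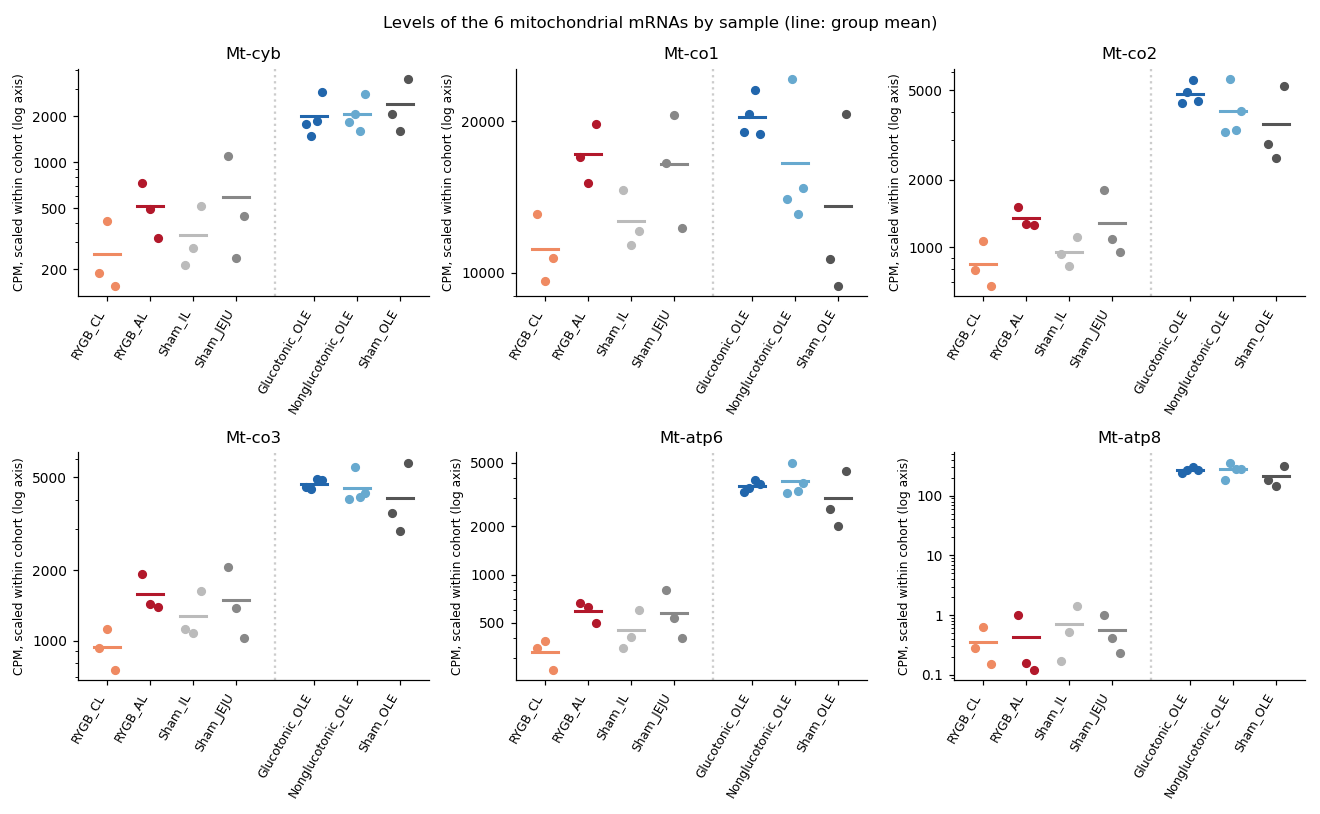
Level of each of the 6 mRNAs in every sample (CPM scaled within cohort, log axis, 1 point per sample), with a line at the group mean and a dotted line between the cohorts. With this TMM scaling, RYGB_CL points for Mt-co1, Mt-co2, Mt-co3 and Mt-atp6 lie below all RYGB_AL points (for Mt-co1 and Mt-co2 not by library totals), while Mt-cyb and Mt-atp8 overlap. The share of all IDs without overlap between these limbs was not counted.

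Mt-cyb, the complex III subunit, varied more within groups of the first cohort than the complex IV and Mt-atp6 mRNAs did. It had 189, 413 and 156 CPM in the 3 RYGB_CL samples (numbers 1-1, 15-29 and 2-3), against 729.97, 497 and 321 CPM in the RYGB_AL samples of the same numbers. RYGB_CL 15-29 lay among the RYGB_AL values, and the log2 difference was -1.03 ± 0.57 (SE; edgeR adjusted p = 0.252). It had 215, 277 and 519 CPM in Sham_IL (14-28, 15-30 and 8-15), against 1098, 237 and 444 CPM in Sham_JEJU of the same numbers. Sham_JEJU 14-28 was the highest of the 12 samples and Sham_JEJU 15-30 was below Sham_IL 15-30 and 8-15, so the groups overlapped, with a log2 difference of -0.82 ± 0.57 (SE; edgeR adjusted p = 0.367). Between surgeries, the log2 difference was -0.20 ± 0.57 in RYGB_AL against Sham_JEJU (adjusted p = 0.876) and -0.41 ± 0.57 in RYGB_CL against Sham_IL (adjusted p = 0.856), both by edgeR with SE. The first of these was 0.60 without Sham_JEJU 14-28, so 1 library set its direction. The mean coefficient of variation of Mt-cyb within the 4 groups was 54.7%, against 17.0% for Mt-co1.

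In the OLETF cohort Mt-cyb had 1767, 1486, 1845 and 2880.1 CPM in Glucotonic_OLE (numbers 13, 16, 18 and 19), 1824, 2059.7, 1593 and 2769 CPM in Nonglucotonic_OLE of the same numbers and 2073, 1594 and 3493 CPM in Sham_OLE (22, 23 and 4). Sham_OLE 4 was the highest sample, number 19 was the highest in both RYGB groups, and the 3 groups overlapped. The log2 difference was -0.26 ± 0.32 in Glucotonic_OLE against Sham_OLE and -0.21 ± 0.32 in Nonglucotonic_OLE against Sham_OLE (SE; edgeR adjusted p = 0.715 and 0.909). Between Glucotonic_OLE and Nonglucotonic_OLE it was -0.05 ± 0.30 (SE; edgeR adjusted p = 1).

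Among the complex IV mRNAs, Mt-co1, which encodes the catalytic subunit with the oxygen-binding centre, took the most counts. It had 13082, 9626 and 10703 CPM in RYGB_CL (1-1, 15-29 and 2-3), against 16939.6, 15066 and 19703 CPM in RYGB_AL. Every RYGB_CL sample was below every RYGB_AL sample, by a log2 difference of -0.63 ± 0.27 (SE; edgeR adjusted p = 0.147). Scaled by library totals, RYGB_CL 1-1 was above RYGB_AL 1-1 and 15-29, and the log2 difference was -0.29. With DESeq2 and its own scaling the adjusted p of Mt-co1 between these limbs was 0.0440, so the call depended on the tool. Over all alternatives run the adjusted p spanned 0.0440 to 0.382. Mt-co2, which receives the electrons from cytochrome c, had 788, 1065 and 672 CPM in RYGB_CL, against 1508, 1269 and 1260.5 CPM in RYGB_AL. These groups did not overlap with TMM scaling, and the log2 difference was -0.68 ± 0.27 (SE; edgeR adjusted p = 0.120, DESeq2 adjusted p = 0.0630, over all alternatives 0.0604 to 0.323). Scaled by library totals, RYGB_CL 15-29 was above RYGB_AL 2-3 for Mt-co2, and the log2 difference was -0.36. Mt-co3, a core subunit without a metal centre, had 933, 1124 and 749 CPM in RYGB_CL, against 1921, 1433 and 1390.4 CPM in RYGB_AL. Again no value overlapped, with a log2 difference of -0.76 ± 0.29, or -0.44 by library totals (SE; edgeR adjusted p = 0.109, DESeq2 adjusted p = 0.0511, over all alternatives 0.0511 to 0.270).

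The same 3 mRNAs overlapped between Sham_IL and Sham_JEJU. Mt-co1 had 14595, 11369.6 and 12107 CPM in Sham_IL (14-28, 15-30 and 8-15), against 16533, 20570.3 and 12289 CPM in Sham_JEJU. Sham_JEJU 8-15 lay within the Sham_IL range, and the log2 difference was -0.38 ± 0.27 (SE; edgeR adjusted p = 0.378). For Mt-co2 the values spanned 824 to 1111 CPM in Sham_IL and 952 to 1801 CPM in Sham_JEJU, with a log2 difference of -0.42 ± 0.27 (SE; edgeR adjusted p = 0.316). For Mt-co3 they spanned 1077 to 1634 CPM in Sham_IL and 1028 to 2063 CPM in Sham_JEJU, with a log2 difference of -0.22 ± 0.29 (SE; edgeR adjusted p = 0.635), which became 0.08 when levels were scaled by library totals.

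RYGB_AL and Sham_JEJU overlapped in the complex IV mRNAs. Mt-co1 differed by 0.07 ± 0.27 on the log2 scale, Mt-co2 by 0.07 ± 0.27 and Mt-co3 by 0.09 ± 0.29 (SE; edgeR adjusted p = 0.917, 0.907 and 0.897). The median log2 difference of all 6 mRNAs was 0.06, against -0.01 over all IDs. It was 0.38 without Sham_JEJU 14-28, and it turned to -0.14 without Sham_JEJU 8-15, -0.06 without RYGB_AL 1-1 and -0.03 without Sham_JEJU 15-30. In RYGB_CL against Sham_IL the log2 difference was -0.19 ± 0.27 for Mt-co1, -0.18 ± 0.27 for Mt-co2 and -0.45 ± 0.29 for Mt-co3 (SE; edgeR adjusted p = 0.862, 0.865 and 0.696). RYGB_CL had 749 to 1124 CPM of Mt-co3, against 1077 to 1634 CPM in Sham_IL, and only RYGB_CL 15-29 reached into the Sham_IL range. The surgery effect in RYGB_AL minus that in RYGB_CL was positive for all 6 mRNAs, between 0.21 and 0.64 on the log2 scale, with edgeR adjusted p between 0.643 and 0.953.

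In the OLETF cohort Mt-co1 had 19045, 20650.1, 23077 and 18856 CPM in Glucotonic_OLE (13, 16, 18 and 19), 13998, 24245, 13071 and 14717 CPM in Nonglucotonic_OLE and 10669, 9411 and 20663 CPM in Sham_OLE (22, 23 and 4). Each of the 4 Glucotonic_OLE samples was above Sham_OLE 22 and 23, while Sham_OLE 4 lay among them. The log2 difference was 0.59 ± 0.33 in Glucotonic_OLE against Sham_OLE (SE; edgeR adjusted p = 0.392). Without Sham_OLE 4 it was 1.01 (edgeR adjusted p = 0.103, over all alternatives 0.103 to 0.932). In Nonglucotonic_OLE, Mt-co1 was high in number 16 and between 13071 and 14717 CPM in the other 3, and the log2 difference from Sham_OLE was 0.28 ± 0.33 (SE; edgeR adjusted p = 0.884). Glucotonic_OLE differed from Nonglucotonic_OLE by 0.31 ± 0.30 on the log2 scale (SE; edgeR adjusted p = 1).

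Mt-co2 and Mt-co3 also overlapped among the OLETF groups. Mt-co2 spanned 4384 to 5558 CPM in Glucotonic_OLE, 3265 to 5601 CPM in Nonglucotonic_OLE and 2484 to 5207 CPM in Sham_OLE. Mt-co3 spanned 4452 to 4913 CPM in Glucotonic_OLE, 4038 to 5534 CPM in Nonglucotonic_OLE and 2942 to 5771 CPM in Sham_OLE. Sham_OLE held the lowest values of both, and it held the highest Mt-co3 value too. Against Sham_OLE the log2 differences of Mt-co2 were 0.45 ± 0.30 in Glucotonic_OLE and 0.20 ± 0.29 in Nonglucotonic_OLE (SE; edgeR adjusted p = 0.451 and 0.908). Those of Mt-co3 were 0.21 ± 0.25 in Glucotonic_OLE and 0.14 ± 0.25 in Nonglucotonic_OLE (SE; edgeR adjusted p = 0.710 and 0.920). All 3 Sham_OLE libraries were sequenced in lane 7, which the sample descriptions name. With lane 7 as a covariate, fitted across the libraries of number 13 that were run in lanes 4 and 7, the median log2 difference of the 6 mRNAs from Sham_OLE was -0.09 in Glucotonic_OLE and -0.23 in Nonglucotonic_OLE. With those libraries also kept apart but no covariate, it was 0.32 in Glucotonic_OLE and 0.23 in Nonglucotonic_OLE. With them summed it was 0.31 in Glucotonic_OLE and 0.24 in Nonglucotonic_OLE, against -0.02 over all IDs in each. Without single samples the median in Glucotonic_OLE spanned 0.10 (without Sham_OLE 23) to 0.68 (without Sham_OLE 4). In Nonglucotonic_OLE it spanned 0.05 (without Sham_OLE 23) to 0.64 (without Sham_OLE 4), and it was 0.06 without Nonglucotonic_OLE 16 and 0.12 without Sham_OLE 22.

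For complex V, Mt-atp6 had 346, 386 and 254 CPM in RYGB_CL (1-1, 15-29 and 2-3), against 661, 627 and 496 CPM in RYGB_AL. The highest RYGB_CL value lay below the lowest RYGB_AL value, and the log2 difference of -0.86 ± 0.28 had the lowest edgeR adjusted p of the 6 mRNAs in the 8 comparisons, 0.0756 (SE). DESeq2 called it, with an adjusted p of 0.0285, and over all alternatives run the adjusted p spanned 0.0285 to 0.206. By library totals the log2 difference was -0.54, and the groups again did not overlap. It had 349, 405 and 601 CPM in Sham_IL (14-28, 15-30 and 8-15), against 796, 534 and 401 CPM in Sham_JEJU. These groups overlapped, with a log2 difference of -0.35 ± 0.28 (SE; edgeR adjusted p = 0.430). The log2 difference was 0.04 ± 0.28 in RYGB_AL against Sham_JEJU and -0.46 ± 0.28 in RYGB_CL against Sham_IL (SE; edgeR adjusted p = 0.948 and 0.695). The first 5 of the 6 mRNAs, all but Mt-atp8, kept a negative log2 difference in RYGB_CL against RYGB_AL without each of the 6 samples in turn, with Mt-atp6 between -0.99 and -0.70. The median log2 difference of the 6 in RYGB_CL against RYGB_AL was -0.72, beside 0.04 over all IDs. When levels were scaled by library totals the medians were -0.40 for the 6 and 0.37 for all IDs.

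**Figure D2:**
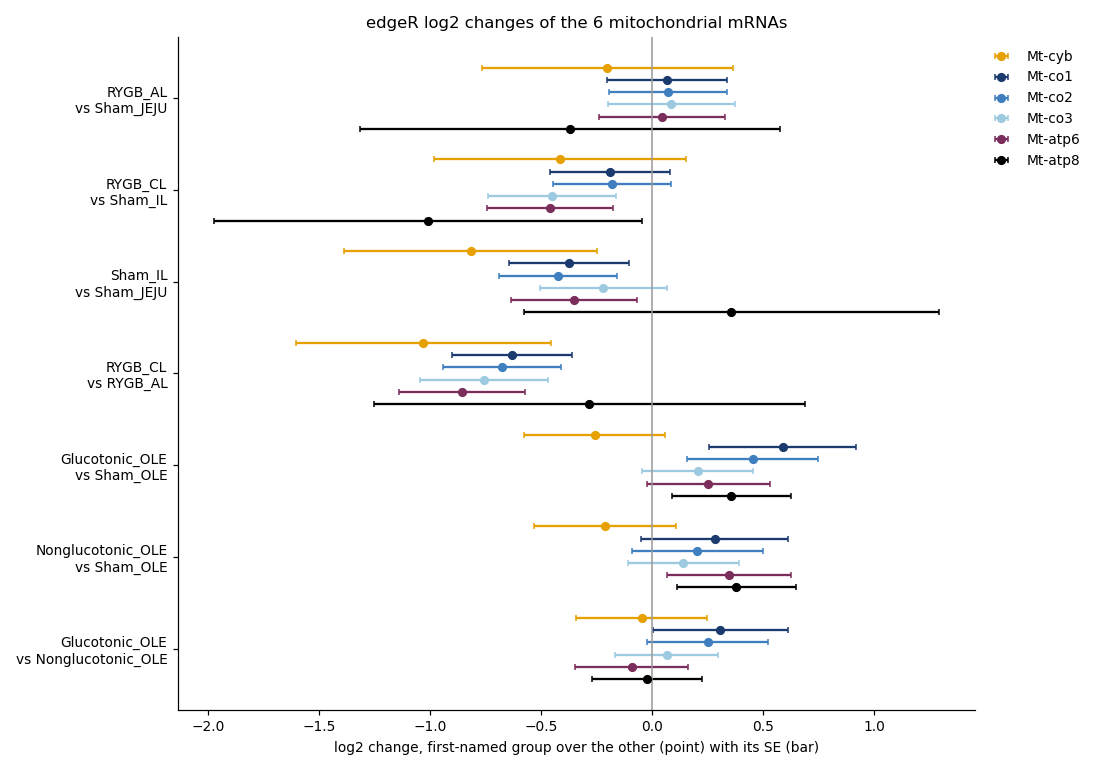
Log2 difference of each of the 6 mRNAs in the comparisons between pairs of groups, with bars of 1 standard error from edgeR. The difference between surgery effects is not drawn. In RYGB_CL against RYGB_AL the points of Mt-co1, Mt-co2, Mt-co3 and Mt-atp6 lie between -0.86 and -0.63, and the bars of Mt-atp8 are the widest in the first cohort.

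Mt-atp6 in the OLETF cohort had 3256, 3453, 3916 and 3685 CPM in Glucotonic_OLE (13, 16, 18 and 19), 3207, 4978, 3329.6 and 3744 CPM in Nonglucotonic_OLE and 2553, 2021 and 4429 CPM in Sham_OLE (22, 23 and 4). Sham_OLE 22 and 23 were the lowest of the 11 samples and Nonglucotonic_OLE 16 the highest, and Sham_OLE 4 lay inside the range of Nonglucotonic_OLE. The log2 difference was 0.25 ± 0.28 in Glucotonic_OLE against Sham_OLE, 0.35 ± 0.28 in Nonglucotonic_OLE against Sham_OLE and -0.09 ± 0.26 in Glucotonic_OLE against Nonglucotonic_OLE (SE; edgeR adjusted p = 0.674, 0.833 and 1).

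Mt-atp8, whose product is a short membrane protein of the ATP synthase stator, was nearly without counts in the first cohort. It had 5 to 39 counts per library there, and 3048 to 11727 counts per sample in the OLETF cohort. Per 1000 counts of Mt-atp6, with which it shares its mRNA, Mt-atp8 had 0.245 to 2.41 counts in the first cohort and 57.3 to 83.1 in the OLETF cohort. Levels in the first cohort were 0.281, 0.634 and 0.152 CPM in RYGB_CL, 1.01, 0.156 and 0.121 CPM in RYGB_AL, 0.168, 0.514 and 1.45 CPM in Sham_IL and 1.03, 0.420 and 0.237 CPM in Sham_JEJU. All 4 groups overlapped, the standard errors of its log2 differences between pairs of groups were 0.93 to 0.97, and a difference was not detectable at this depth. In the OLETF cohort it spanned 239.7 to 304 CPM in Glucotonic_OLE, 184 to 355 CPM in Nonglucotonic_OLE and 145 to 309 CPM in Sham_OLE. Its log2 difference was 0.36 ± 0.27 in Glucotonic_OLE and 0.38 ± 0.27 in Nonglucotonic_OLE against Sham_OLE (SE; edgeR adjusted p = 0.522 and 0.824), and -0.02 ± 0.25 in Glucotonic_OLE against Nonglucotonic_OLE (SE; edgeR adjusted p = 1). How reads in the overlap of both reading frames were counted, and whether strand and overlap were handled alike in both cohorts, was not given in those sources, so counting and cohort cannot be told apart for Mt-atp8.

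The make-up of the 6 mRNAs does not depend on how libraries are scaled, so each was also taken as a percent of their summed counts. A larger share of Mt-co1 leaves less of the sum for the others, so tests of shares are not independent of each other. Mt-co1 took 74.2 to 86.4% of the sum in the first cohort and 48.8 to 58.7% in the OLETF cohort. Mt-cyb took 0.997 to 4.93% and 4.22 to 9.48%, Mt-atp6 took 2.03 to 3.76% and 9.80 to 12.95%, Mt-co2 took 4.56 to 8.45% and 12.3 to 14.03%, and Mt-co3 took 5.79 to 10.2% and 12.4 to 16.1%, each in the first and then the OLETF cohort. The ranges of Mt-co1, Mt-co2, Mt-co3, Mt-atp6 and Mt-atp8 thus did not overlap between the cohorts, and that of Mt-cyb did. The 95% interval of a share (Clopper-Pearson) reached at most 0.157 percentage points to either side for the 5 mRNAs other than Mt-atp8, for counting error only. Between these 2 sets of libraries, cohort, strain where it differs and library composition cannot be told apart. Within the first cohort each exact two-sided permutation test of a share gave a p of at least 0.5, where 3 samples against 3 allow no p below 0.1.

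**Figure D3:**
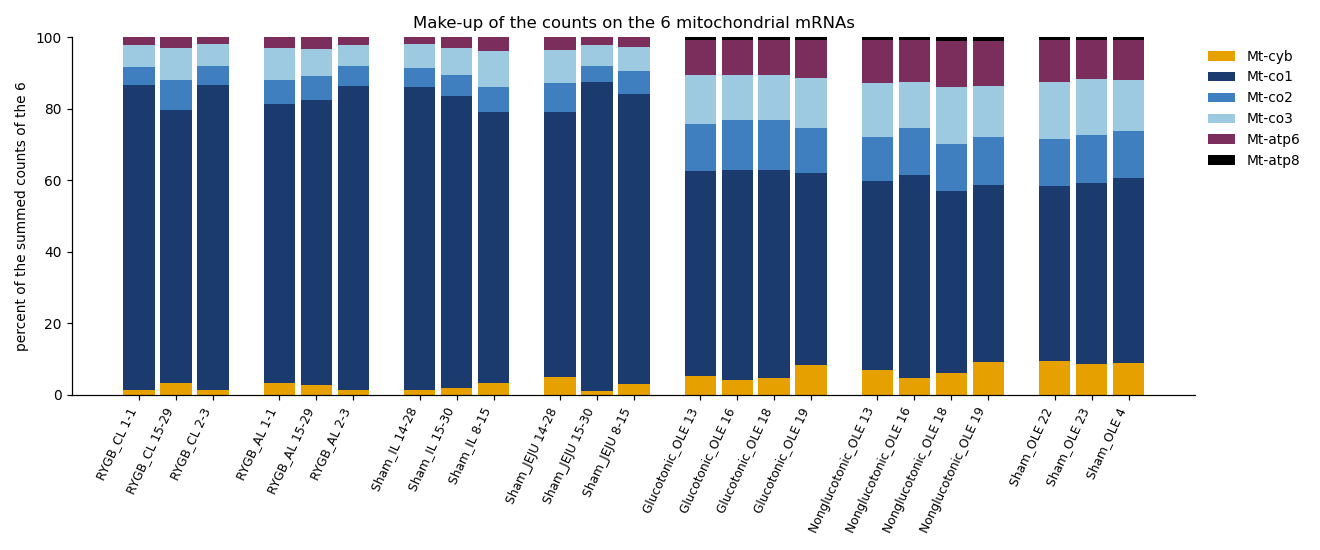
Percent of the summed counts of the 6 mRNAs taken by each, 1 bar per sample. Mt-co1 fills 74.2 to 86.4% of each first-cohort bar and 48.8 to 58.7% of each OLETF bar.

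Within the OLETF cohort the shares of Mt-atp6 separated the RYGB sections. It took 9.80, 9.81, 9.89 and 10.5% of the sum in Glucotonic_OLE (13, 16, 18 and 19), against 12.1, 11.6, 12.95 and 12.6% in Nonglucotonic_OLE. All 4 Glucotonic_OLE samples were below all 4 Nonglucotonic_OLE samples, a difference of -2.31 percentage points between means of 10.002 ± 0.346% and 12.3 ± 0.569% (SD, n = 4 each). The exact two-sided permutation p was 0.0286, the smallest that 4 samples against 4 allow. After Benjamini-Hochberg adjustment over 42 tests of shares it was 0.40. With so few samples, none of the 42 tests could have passed the threshold after adjustment, even with each at its smallest possible p. The adjusted p therefore cannot decide whether a share differed. The permutation test exchanges samples freely. When sections were exchanged only within the 4 same-numbered pairs, the exact p was 0.125, the smallest that 4 pairs allow. In libraries of lane 4, Glucotonic_OLE had 9.81 to 9.99% and Nonglucotonic_OLE 11.6 and 12.2%, and in lane 7 the single libraries of number 13 had 9.52% in Glucotonic_OLE and 12.01% in Nonglucotonic_OLE. The difference was thus present within each lane that held both groups. Mt-co1 took 57.3, 58.7, 58.3 and 53.8% in Glucotonic_OLE, against 52.8, 56.7, 50.9 and 49.3% in Nonglucotonic_OLE. It was higher in Glucotonic_OLE in 4 of 4 same-numbered pairs, by 4.59 points between the means (exact permutation p = 0.0571, adjusted p = 0.40). Mt-co3 and Mt-cyb were lower in Glucotonic_OLE in 4 of 4 pairs, with exact permutation p of 0.114 and 0.371. Within pairs the exact permutation p was 0.125 for Mt-co1, Mt-co3 and Mt-cyb, a test added after the data had been seen.

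Against Sham_OLE, Mt-co1 took a larger share in Glucotonic_OLE and Mt-cyb, Mt-co3 and Mt-atp6 smaller ones, without overlap over the samples of all lanes. Mt-cyb took 5.32, 4.22, 4.66 and 8.22% in Glucotonic_OLE, 6.88, 4.82, 6.20 and 9.28% in Nonglucotonic_OLE and 9.48, 8.57 and 8.76% in Sham_OLE (22, 23 and 4). Glucotonic_OLE was lower by 3.33 points in the mean and every one of its samples was below Sham_OLE, whereas Nonglucotonic_OLE 19 reached into the Sham_OLE range. The Mt-co1 share averaged 57.01 ± 2.21% in Glucotonic_OLE (SD, n = 4) and 50.4 ± 1.52% in Sham_OLE (SD, n = 3). For each of these 4 mRNAs the exact two-sided permutation p was 0.0571, the smallest that 4 samples against 3 allow. It was 0.40 after adjustment over the 42 tests, none of which could have passed. As parts of the same sum, these 4 shares are not independent. In levels the edgeR log2 differences were 0.59 for Mt-co1, -0.26 for Mt-cyb, 0.21 for Mt-co3 and 0.25 for Mt-atp6, none of them called. In Nonglucotonic_OLE against Sham_OLE the exact permutation p was 0.171 for Mt-cyb, 0.400 for Mt-co1 and 0.114 for Mt-atp6, for which Nonglucotonic_OLE was higher by 1.09 points.

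The shares of Mt-cyb, Mt-co1 and Mt-co3 also differed between libraries of different sequencing lanes. Their values by lane were looked at after the data had been seen. Mt-cyb took 4.22 to 5.66% in the 5 libraries of lane 4 and 6.63 to 9.48% in the 5 libraries of lane 7, with 6.20 and 9.28% in lane 5 and 8.22% in lane 6. Number 13 had separate libraries in lanes 4 and 7 within each RYGB group. Its Glucotonic_OLE libraries had 4.39% in lane 4 and 6.63% in lane 7. Its Nonglucotonic_OLE libraries had 5.66% in lane 4 and 8.10% in lane 7. The labels of the Nonglucotonic_OLE pair differ in a second number, so it may hold separate pieces of tissue. By the sample descriptions the libraries of both pairs carry different barcodes, so lane and library cannot be told apart in either pair. Mt-co1 in the same libraries had 59.0% in lane 4 and 54.9% in lane 7 in Glucotonic_OLE, and 55.3% in lane 4 and 50.3% in lane 7 in Nonglucotonic_OLE. Mt-co3 took 12.4 to 14.1% in lane 4 and 14.5 to 16.3% in lane 7, and in number 13 it had 12.6% in lane 4 and 15.2% in lane 7 in Glucotonic_OLE, and 14.1% in lane 4 and 16.3% in lane 7 in Nonglucotonic_OLE. Only 1 Glucotonic_OLE library shared lane 7 with the 3 Sham_OLE libraries: it had 6.63% Mt-cyb, against 8.57 to 9.48% in Sham_OLE, and 54.9% Mt-co1, against 48.8 to 51.8% in Sham_OLE. Its Mt-co3 share of 15.2% lay inside the Sham_OLE range of 14.5 to 16.1%, so the separation of Mt-co3 was not present in lane 7, and its Mt-atp6 share of 9.52% lay below the Sham_OLE range of 10.9 to 11.7%. That leaves too few libraries for a test within the lane, and the part of the lane in the differences from Sham_OLE was not tested for shares.

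**Figure D4:**
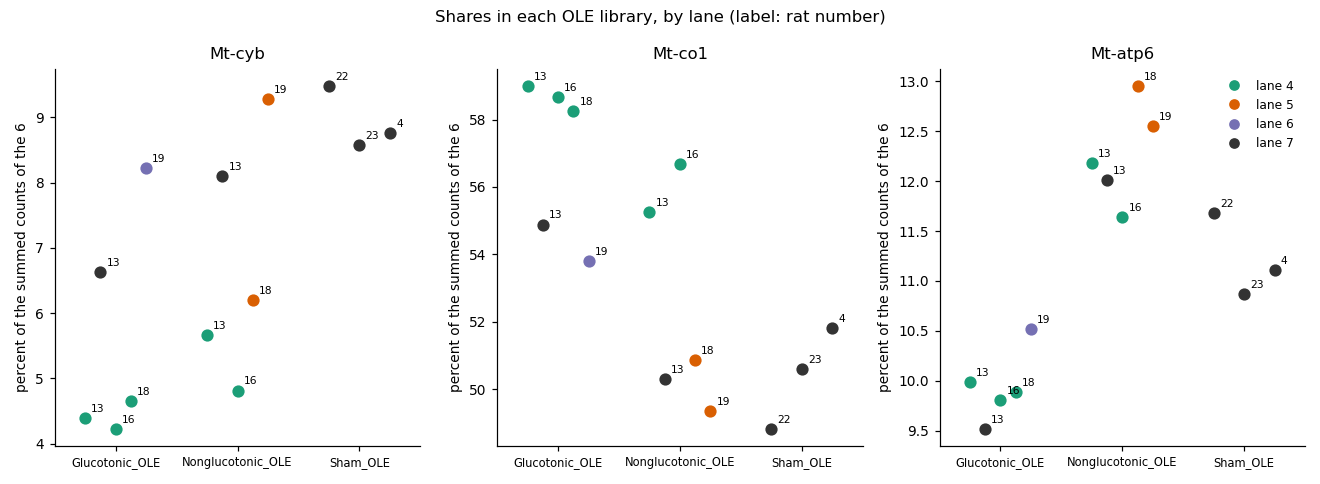
Percent of the 6-mRNA sum taken by Mt-cyb, Mt-co1 and Mt-atp6 in each OLETF library, set out by the 3 groups. Colours give the sequencing lane, labels give the sample number, and the axes do not start at 0. Mt-cyb lies at 4.22 to 5.66% in lane 4 and 6.63 to 9.48% in lane 7, and Mt-atp6 is lower in Glucotonic_OLE than in Nonglucotonic_OLE within both lanes.

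For an order over all 7 groups the cohorts were scaled together, as a description with no test. The mean of Mt-cyb was 3359.8 CPM in Sham_OLE, 2955 CPM in Nonglucotonic_OLE, 2861 CPM in Glucotonic_OLE, 431 CPM in Sham_JEJU, 376 CPM in RYGB_AL, 241 CPM in Sham_IL and 184 CPM in RYGB_CL. For Mt-co1 the order of means was 29267 CPM in Glucotonic_OLE, 23605 CPM in Nonglucotonic_OLE, 19129.8 CPM in Sham_OLE, 12475 CPM in RYGB_AL, 11958 CPM in Sham_JEJU, 9093 CPM in Sham_IL and 8114 CPM in RYGB_CL. The 3 OLETF groups were above the 4 groups of the first cohort for 6 of 6 mRNAs, and for 5 of 6 when scaled by library totals, where Mt-co1 was the exception. Neighbours in these orders overlapped in range except at the step between the cohorts, and for Mt-co1 the ranges overlapped there too. Mt-atp8 showed the widest step, with means of 393 CPM in Nonglucotonic_OLE, 388 CPM in Glucotonic_OLE, 297 CPM in Sham_OLE, 0.508 CPM in Sham_IL, 0.407 CPM in Sham_JEJU, 0.315 CPM in RYGB_AL and 0.258 CPM in RYGB_CL. Within each cohort, the summed level of the 6 averaged 13496 ± 1597 CPM in RYGB_CL, 21274 ± 2181 CPM in RYGB_AL, 15714 ± 1646 CPM in Sham_IL and 20404 ± 4643 CPM in Sham_JEJU (SD, n = 3 each). It averaged 35771 ± 2711 CPM in Glucotonic_OLE, 31204 ± 7916 CPM in Nonglucotonic_OLE and 26776 ± 11458 CPM in Sham_OLE (SD, n = 4, 4 and 3).

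Across samples the 6 mRNAs did not follow each other equally, given here as Pearson's r of log2 CPM without a p, since samples share numbers, libraries and depth. Over the 12 first-cohort samples r was 0.97 for Mt-co3 with Mt-atp6, 0.95 for Mt-co2 with Mt-co3 and 0.88 for Mt-cyb with Mt-co2, and 0.21 for Mt-cyb with Mt-co1. Over the 11 OLETF samples it was 0.99 for Mt-co1 with Mt-co2, 0.96 for Mt-co3 with Mt-atp6 and 0.25 for Mt-cyb with Mt-co1. Mt-cyb and Mt-co1 thus followed each other less closely than the other pairs named here, in both cohorts. In the first cohort Mt-cyb moved with ENSRNOG00000043866, one of the pair of abundant IDs, at r = 0.90. Mt-atp8, Mt-co2, Mt-co3 and Mt-atp6 had r of 0.75, 0.73, 0.71 and 0.70 with the same ID, and Mt-co1 had r = -0.08. In the OLETF cohort r with that ID was between 0.18 and 0.39 for the 6, with Mt-cyb at 0.39. Over the first-cohort samples that ID ranged between 1586 and 15372 CPM. It was highest in Sham_JEJU 14-28, the sample of that cohort that was also highest for Mt-cyb. The part of that ID in the Mt-cyb differences was not tested. Of 9247 other IDs, ENSRNOG00000033615 (r = 0.86 in the first cohort and 0.95 in the OLETF cohort) and ENSRNOG00000030644 (r = 0.95 and 0.81) followed the mean of the 6 most closely, by the lower of both r.

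**Figure D5:**
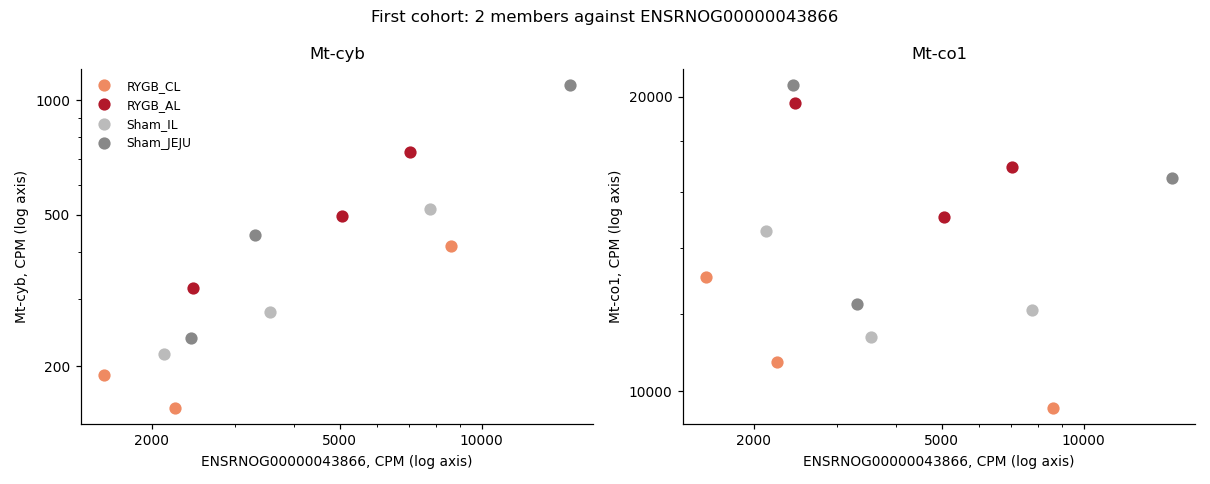
Levels of Mt-cyb and Mt-co1 against ENSRNOG00000043866 in the 12 first-cohort samples (CPM, log axes, 1 point per sample). Mt-cyb climbs with that ID (r = 0.90) and Mt-co1 does not (r = -0.08).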

How the data were processed

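Rat intestinal total RNA was sequenced from stranded, ribosomal-RNA-depleted libraries, per the labels' protocols. Reads were checked with FastQC and aligned with STAR to rn6, per the submitters' processing notes. The deposited table holds raw read counts per Ensembl gene ID from 25 libraries, without normalization. The tool that counted reads, the annotation, and the handling of multimapping reads were not given in the sources used here. No per-sample column was left unused.

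The 6 mRNAs, the tests and the lists were chosen with earlier results of these data known. All 6 mRNAs are named, with the 2 other IDs (mean of at least 5 CPM) whose log2 CPM (prior count 2) followed their mean most closely in both cohorts. Lists of other respiratory-chain genes and cell type markers could not be applied, because 0 IDs of the table had a line in the reference tables. For the same reason no gene length was at hand and levels per kilobase were not computed.

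The libraries of number 13 were summed within each OLETF group. Each cohort was fitted apart with edgeR 4.0.16 in R 4.3.3: filterByExpr (minimum count 10, minimum total 15), TMM scaling, robust glmQLFit, glmQLFTest and Benjamini-Hochberg adjustment over all IDs tested, at 0.05. DESeq2 1.42.0 was the alternative tool, and limma 3.58.1 was loaded with edgeR. edgeR's common dispersion gave a coefficient of variation of 0.314 (first cohort) and 0.279 (OLETF). Shares were compared by exact two-sided permutation tests (scipy 1.17.1), also within same-numbered OLETF pairs. The scripts were tested on simulated data. Depth sets the precision, and intervals cover counting error only. All library pairs of a group differed by more than sampling noise (chi-square over its degrees of freedom was at least 16.3), so none was taken for a library deposited again. The libraries of number 13 (35.6 in Glucotonic_OLE and 30.0 in Nonglucotonic_OLE) were summed for their shared number alone. Some pairs of number 13 with another number had lower values, such as 16.3 with Glucotonic_OLE 18 and 21.8 with Nonglucotonic_OLE 18. Other such pairs had higher values. Labels do not say that samples come from separate rats, so p-values speak only of the spread among the samples given, which may be technical.

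Deviations from group means of same-numbered Glucotonic_OLE and Nonglucotonic_OLE samples correlated at 0.467 (13), 0.430 (16), 0.341 (18) and 0.811 (19). Each r is above 0.1, and these samples were taken as paired by number in the replicate-block fit and the within-pair share tests only. The main fits and the main share tests did not use the pairing. Differently numbered samples correlated between -0.648 (Glucotonic_OLE 19 with Nonglucotonic_OLE 16) and 0.444 (Glucotonic_OLE 18 with Nonglucotonic_OLE 16). The latter is above the r of number 18 with itself, so these r alone do not show that a number is a single rat.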

Additional observations from a re-analysis of the deposited data

Results flagged for a closer look

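Among 26 sets of values of one group with 4 samples, 2 had a sample far from the others, where chance marks about 1 set in 20. Mt-co1 was at 24245 CPM in Nonglucotonic_OLE 16, and the nearest of the other 3 samples of that group was at 14717 CPM. Mt-atp6 took 10.5% of the 6-mRNA sum in Glucotonic_OLE 19, and the nearest other Glucotonic_OLE sample had 9.89%.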

How the results depend on the processing

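The call of 0 of 6 mRNAs held in 7 of the 8 comparisons under every alternative run. In RYGB_CL against RYGB_AL DESeq2 called 2, Mt-co1 and Mt-atp6. The step between cohorts held for 6 of 6 mRNAs, and for 5 under library totals. Of 756 alternative log2 differences 703 kept their direction, and the cause of the others was not tested. Over all IDs, library totals gave 2245 higher and 434 lower in RYGB_CL against RYGB_AL, beside 670 and 834 with TMM, and 1339 higher and 451 lower in Sham_IL against Sham_JEJU, beside 444 and 1045 with TMM.

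Leaving out 1 replicate at a time reversed some values, which then spanned these log2 ranges. In RYGB_AL against Sham_JEJU: Mt-cyb -0.59 to 0.60, Mt-co1 -0.11 to 0.24, Mt-co2 -0.10 to 0.40, Mt-co3 -0.12 to 0.39, Mt-atp6 -0.16 to 0.34, Mt-atp8 -1.97 to 0.37. In RYGB_CL against Sham_IL: Mt-cyb -0.96 to 0.0395, Mt-atp8 -1.70 to 0.0383. In Sham_IL against Sham_JEJU: Mt-cyb -1.27 to 0.00079, Mt-co3 -0.44 to 0.10, Mt-atp8 -0.69 to 1.11. In RYGB_CL against RYGB_AL: Mt-atp8 -0.98 to 1.32. In the surgery effect in RYGB_AL minus that in RYGB_CL: Mt-cyb -0.24 to 1.01, Mt-atp8 -0.96 to 1.37. In Glucotonic_OLE against Sham_OLE: Mt-cyb -0.47 to 0.11. In Nonglucotonic_OLE against Sham_OLE: Mt-cyb -0.42 to 0.16, Mt-co3 -0.0364 to 0.46. In Glucotonic_OLE against Nonglucotonic_OLE: Mt-cyb -0.28 to 0.13, Mt-atp6 -0.17 to 0.0591, Mt-atp8 -0.17 to 0.12.

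Library totals reversed Mt-co3 in Sham_IL against Sham_JEJU (0.0806) and in Glucotonic_OLE against Nonglucotonic_OLE (-0.0620), and Mt-atp8 in RYGB_CL against RYGB_AL (0.0127). Lane 7 as a covariate, a term that mixes lane with sample, reversed Mt-co3 (-0.0067), Mt-atp6 (-0.20) and Mt-atp8 (-0.18) in Glucotonic_OLE against Sham_OLE. It reversed Mt-co1 (-0.22), Mt-co2 (-0.28), Mt-co3 (-0.10), Mt-atp6 (-0.13) and Mt-atp8 (-0.24) in Nonglucotonic_OLE against Sham_OLE, and Mt-atp8 in Glucotonic_OLE against Nonglucotonic_OLE (0.0615). Keeping the libraries of number 13 apart also turned the last (0.0556).

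In the first cohort, same-numbered RYGB_CL and RYGB_AL samples correlated at -0.048 (1-1), 0.166 (15-29) and 0.275 (2-3) and sham samples at 0.030 to 0.087. Not each r was above 0.1, so the numbers were not taken as pairs. With 3 samples in each group, these r cannot show that same-numbered samples come from separate rats. With the replicate block 0 of 6 mRNAs were called, and Mt-atp8 was at 0.0604 in RYGB_CL against RYGB_AL. In Glucotonic_OLE against Nonglucotonic_OLE the paired block turned Mt-atp8 (0.0084) and changed no call of the 6. A fit on the groups compared alone equals the full fit for the surgery effect between limbs and was not run.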
